A study of Mus musculus with 27 samples.

Results

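The transcripts of 10 genes were followed in whole mouse embryos that lack DNMT3B activity. They are the genes of the ICF syndrome other than Dnmt3b, namely Zbtb24, Cdca7 and Hells, and 7 genes for proteins of silent chromatin, namely Smchd1, Trim28, Suv39h1, Cbx1, Cbx5, Atrx and Daxx. The genes were chosen by name, with earlier results of these data known, and all 10 were found among the 24065 genes of the count table. The series covers reduced representation bisulfite sequencing of stages from the blastocyst onwards, which was not analysed here, and RNA-Seq of 6 embryos at E8.5. The RNA-Seq compared 3 WT embryos with 3 Dnmt3b-/- littermates, all C57BL/6J, in 3 libraries for each genotype. The Dnmt3b-/- embryos carry a catalytically inactive allele that was made by crossing mice with a floxed Dnmt3b gene to an ACTB-Cre deleter line, in which a broadly active promoter drives the recombinase, and they came from matings of heterozygous parents. Litters are not labelled, and p-values measure the spread between these 6 samples. Each library holds all cell types of a whole embryo, so that fewer cells of a type and less RNA per cell cannot be told apart.

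ICF syndrome, named for immunodeficiency, centromeric instability and facial anomalies, is a recessive human disease in which satellite repeats near the centromeres lose DNA methylation. It is caused by mutations of the DNA methyltransferase DNMT3B, of the zinc finger transcription factor ZBTB24, of CDCA7 or of HELLS. CDCA7 is a zinc finger protein that brings the nucleosome remodeller HELLS to chromatin, and ZBTB24 activates transcription of the CDCA7 gene. In constitutive heterochromatin, SUV39H1 methylates lysine 9 of histone H3, and the HP1 proteins encoded by Cbx1 (HP1 beta) and Cbx5 (HP1 alpha) bind this mark. TRIM28 is the corepressor of the KRAB zinc finger proteins that silence transposons and protect imprints. ATRX and DAXX together deposit the histone variant H3.3 in heterochromatin, and SMCHD1 is needed to silence genes on the inactive X chromosome.

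The raw counts on genes summed to between 41489332 and 58470286 per WT embryo and to between 42424368 and 47788062 per Dnmt3b-/- embryo. Normalized counts are raw counts scaled by the TMM method to the mean library size. The targeted gene Dnmt3b, which was counted over all its exons together, so that the deleted part is not seen on its own, fell from 9197 ± 4191 to 4463 ± 349 normalized counts (SD, n = 3 embryos each). Its log2 fold change was -1.04 (standard error, SE, 0.27, adjusted p = 0.0169), and -0.85 (adjusted p = 0.0618) after a correction for base content and length, which takes out of every library its own trend with the GC content and the length of exons. Dnmt3b was highest in WT embryo 2, with 14003 normalized counts, and without this embryo its log2 fold change was -0.61 (adjusted p = 0.0026). The libraries also differed in a trend with base content over the genes tested, and this trend separated the genotypes. Transcripts with an exonic GC content of at least 55.1%, the upper quartile of the genes tested, had a median log2 level of 0.20 to 0.28 relative to the mean of the 6 libraries in WT embryos and of -0.10 to -0.33 in Dnmt3b-/- embryos. The part of this trend in the changes of single genes was not tested otherwise than by the corrected values given beside them. Since the trend falls together with genotype, a technical origin and a difference between the genotypes cannot be told apart. The correction also takes out any real difference between the genotypes that follows GC content or length. Xist, which is expressed from the inactive X chromosome, held 15248 to 18781 raw counts in WT embryos 1 and 3 and in Dnmt3b-/- embryo 2, and 3 to 11 raw counts in the other embryos, so that neither genotype was of 1 sex. All 14 marker genes of E8.5 embryonic tissues passed the filter on low counts, and 4 of the 9 trophoblast and decidua markers had no count in any embryo. The summed level of 10 extraembryonic endoderm markers ranged from 567 to 4450 CPM (counts scaled to an equal library size) in WT embryos, with the highest value in WT embryo 2, and from 319 to 1030 in Dnmt3b-/- embryos.

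The levels of the 10 genes were compared between genes as FPKM, the fragments counted per unit of exon length and of library size, in the usual units. Trim28 was the highest in WT embryos, with 293, 307 and 318 FPKM from the lowest to the highest embryo. Next came the HP1 gene Cbx5 with 135, 142 and 148 FPKM and the remodeller gene Hells with 118, 123 and 130 FPKM. Cdca7 lay just below Hells, at 111, 114 and 116 FPKM. The lower levels were those of Cbx1 (74.8 ± 3.2 FPKM, SD, n = 3), Smchd1 (52.8 ± 2.7), Atrx (44.8 ± 1.6), Suv39h1 (38.2 ± 3.2) and Daxx (19.3 ± 1.5). Zbtb24 was the lowest, with 3.54, 3.83 and 3.85 FPKM. The ranges of the WT embryos did not overlap between any neighbours in this order. Of all genes with a known exon length, 99.1% lay below Trim28 and 63.1% below Zbtb24.

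**Figure D1:**
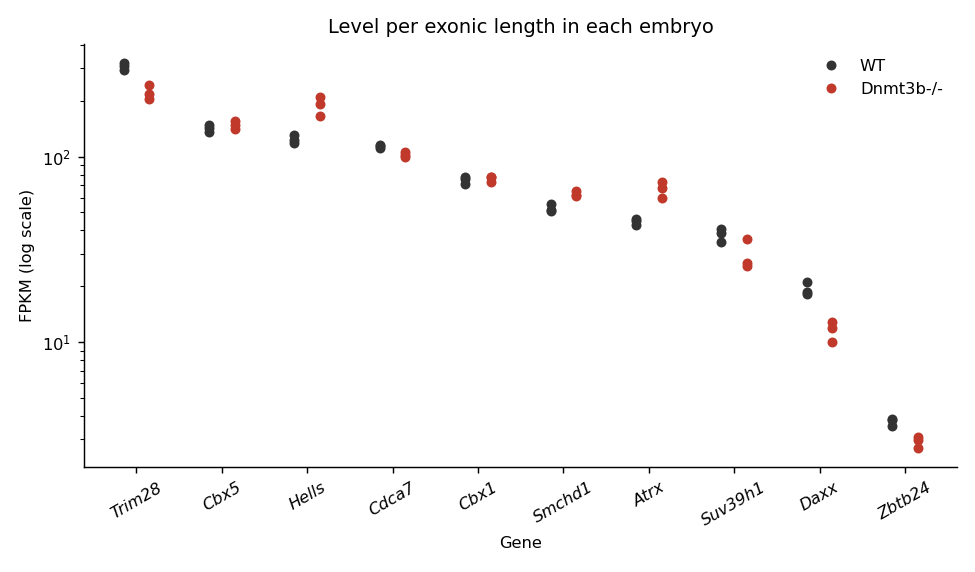
Level of each gene in each embryo as FPKM on a logarithmic axis, with genes ordered by their mean in WT embryos, WT embryos in dark grey and Dnmt3b-/- embryos in red. Trim28 was highest at 306 FPKM and Zbtb24 lowest at 3.74 FPKM on average in WT embryos.

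The comparison of Dnmt3b-/- with WT embryos asks whether the partners of DNMT3B in ICF syndrome and the machinery of silent chromatin keep their transcript levels when DNMT3B is inactive. Changes were moderate. At an adjusted p below 0.05, Hells, Atrx and Smchd1 rose and Trim28 and Daxx fell in Dnmt3b-/- embryos, while Zbtb24, Cdca7, Suv39h1, Cbx1 and Cbx5 did not pass the test. These 5 of 10 genes compare with 35.7% of the 15114 genes tested, 17.6% higher and 18.1% lower. In 6 of the 10 genes the embryos of the 2 genotypes did not overlap, 3 higher and 3 lower in Dnmt3b-/- embryos, against 51.8% of all genes tested (25.3% higher and 26.5% lower). None of the 10 changed by more than 2-fold, against 5.9% of all genes tested that passed with such a change. The median absolute log2 fold change was 0.31 over the 10 genes and 0.37 over all genes tested. After the correction for GC content and length, 0 of the 10 passed at an adjusted p below 0.05 in edgeR (lowest adjusted p = 0.054), against 23.2% of all genes tested. At an unadjusted p below 0.05 after the correction, 5 of the 10 passed, against 37.0% of all genes tested. The 10 genes were chosen with earlier results of these data known, so these shares are given as a description. DESeq2 gave 5 calls among the 10 genes without this correction.

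**Figure D2:**
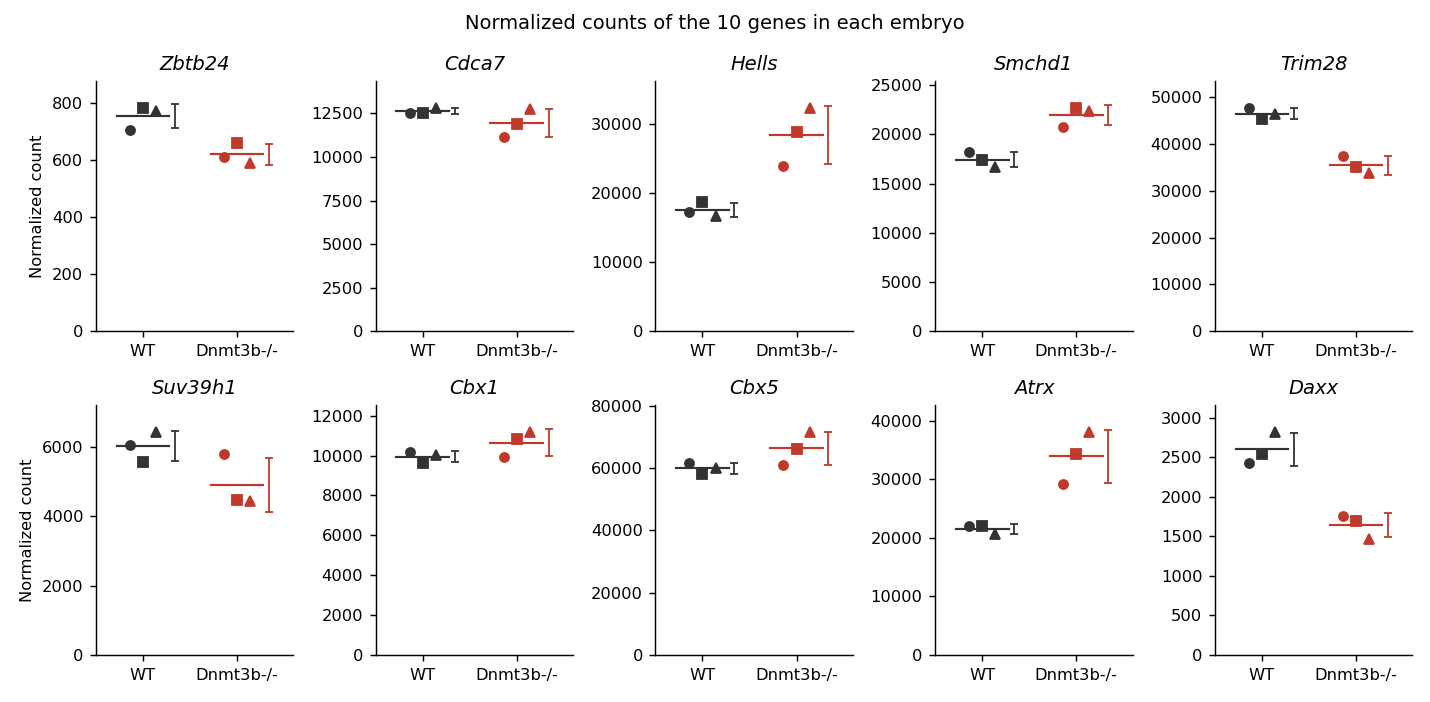
Normalized counts of each gene in the 3 WT embryos (dark grey) and the 3 Dnmt3b-/- embryos (red), with a panel and an axis from 0 for each gene, the mean as a horizontal line and the SD as a bar beside it, and circle, square and triangle for embryos 1, 2 and 3. Hells, Smchd1 and Atrx lay higher and Zbtb24, Trim28 and Daxx lower in each Dnmt3b-/- embryo than in any WT embryo.

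Among the genes of ICF syndrome other than Dnmt3b, only the remodeller gene Hells (chromosome 19, 38930990 to 38968277 in mm10, plus strand) passed the test. Its normalized counts were 17243, 18679.6 and 16619 in WT embryos 1, 2 and 3 and 23894.5, 28763 and 32288.5 in Dnmt3b-/- embryos 1, 2 and 3. Every Dnmt3b-/- embryo lay above every WT embryo, and the Dnmt3b-/- embryos were more spread (coefficient of variation 14.9% against 6.03%). The change was 1.62-fold (95% interval 1.36 to 1.93), a log2 fold change of 0.69 (SE 0.11, adjusted p = 0.00247). After the correction for GC content and length it was 0.13 (SE 0.09, adjusted p = 0.355), with corrected counts of 20138 to 22009.8 in WT and 20366 to 25477 in Dnmt3b-/- embryos, which overlapped. Hells has an exonic GC content of 38.5%, at percentile 2.02 of the genes tested.

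Cdca7, the partner that recruits HELLS, lies on chromosome 2 (72476219 to 72486890, plus strand) and had 12508, 12516 and 12818 normalized counts in WT embryos and 11168, 11903 and 12775 in Dnmt3b-/- embryos. The groups overlapped, and the WT embryos were very close to each other, with a coefficient of variation of 1.4%. The log2 fold change was -0.08 (95% interval -0.24 to 0.09, adjusted p = 0.432). Zbtb24, the activator of Cdca7, lies on chromosome 10 (41450358 to 41465582, plus strand) and had 705, 783 and 772 normalized counts in WT embryos and 611, 658 and 589 in Dnmt3b-/- embryos. Its groups did not overlap, but the difference did not pass the test over all genes, with a log2 fold change of -0.28 (SE 0.11, adjusted p = 0.0851) and of -0.33 (adjusted p = 0.0672) after the correction. Zbtb24 held the fewest reads of the 10 genes, 520 to 890 raw counts per embryo, at which counting alone gives an error of at most 4.39%. With scaling to total counts its adjusted p was 0.044, the lowest of all alternatives, and the highest was 0.201.

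Trim28, the corepressor of the KRAB zinc finger proteins (chromosome 7, 13024152 to 13031032, plus strand), had 47787, 45326 and 46512 normalized counts in WT embryos and 37555, 35073 and 33740.4 in Dnmt3b-/- embryos. Its groups were well apart, each with a coefficient of variation under 6%, and the log2 fold change was -0.39 (SE 0.07, adjusted p = 0.00334), so that the gene fell by 23.8%. Trim28 is also the richest in GC of the 10 genes, at 59.6%. After the correction the direction turned, to a log2 fold change of 0.20 (SE 0.07, adjusted p = 0.0654), and the corrected counts were 37416 to 38287 in WT and 41149.6 to 45671 in Dnmt3b-/- embryos. The direction for Trim28 thus differed with and without this correction.

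Suv39h1, a gene for a writer of the heterochromatic histone mark, and the HP1 genes Cbx1 and Cbx5 did not pass the test. Suv39h1 (chromosome X, 8061171 to 8074760, minus strand) had 6070.2, 5565.5 and 6449 normalized counts in WT embryos and 5809, 4477 and 4441 in Dnmt3b-/- embryos. Dnmt3b-/- embryo 1 lay within the WT range and the other Dnmt3b-/- embryos below it. The log2 fold change was -0.30 (SE 0.12, adjusted p = 0.0775). Leaving out Dnmt3b-/- embryo 1 gave -0.42 (adjusted p = 0.00677). This gene is X-linked, and with the Xist level of each embryo as a covariate its log2 fold change was -0.29 (adjusted p = 0.12).

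Cbx5, the HP1 alpha gene (chromosome 15, 103191546 to 103239852, minus strand), had 61653, 57947 and 59866 normalized counts in WT embryos and 61024, 66022 and 71679 in Dnmt3b-/- embryos. The groups overlapped at Dnmt3b-/- embryo 1, and the log2 fold change was 0.15 (95% interval -0.03 to 0.32, adjusted p = 0.167). Without that embryo it was 0.22 (adjusted p = 0.0419). Cbx1, the HP1 beta gene (chromosome 11, 96789135 to 96808643, plus strand), had 10178.5, 9625 and 10055 normalized counts in WT embryos and 9932, 10835 and 11209 in Dnmt3b-/- embryos, again with overlap. Its log2 fold change was 0.10 (95% interval -0.07 to 0.26, adjusted p = 0.32). After the correction Cbx5 and Cbx1 were on the other side of 0, at -0.07 (adjusted p = 0.534) for Cbx5 and at -0.17 (adjusted p = 0.116) for Cbx1. The corrected counts of Cbx1 did not overlap, with 10436 to 11234 in WT and 9155 to 10205 in Dnmt3b-/- embryos. Those of Cbx5 still overlapped.

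Atrx, the chromatin remodeller of the H3.3 deposition complex (chromosome X, 105797615 to 105929372, minus strand), had 21954, 22037 and 20597 normalized counts in WT embryos and 29252, 34291 and 38147 in Dnmt3b-/- embryos. All Dnmt3b-/- embryos exceeded all WT embryos, and the change was 1.57-fold (95% interval 1.34 to 1.84), a log2 fold change of 0.65 (SE 0.10, adjusted p = 0.00199). With the Xist level as a covariate, which allows for the sex of the embryos, the log2 fold change of this X-linked gene was also 0.65 (adjusted p = 0.0047). After the correction for GC content and length it was 0.28 (SE 0.09, adjusted p = 0.054), and the groups still did not overlap, with 23709 to 25756 corrected counts in WT and 26496.0 to 32887 in Dnmt3b-/- embryos. The exons of Atrx overlap those of Gm14853 on the same strand over 577 of their 10244 bases. Gm14853 is not among the genes of the count table, and reads there could come from either gene.

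Daxx, the H3.3 chaperone that works with ATRX, moved the other way. It lies on chromosome 17 (33909445 to 33915590, plus strand) and had 2427, 2544.5 and 2827 normalized counts in WT embryos and 1759.6, 1695 and 1470.0 in Dnmt3b-/- embryos. The groups were apart, with a log2 fold change of -0.66 (SE 0.10, adjusted p = 0.00216), a level 0.632 times that of WT. After the correction the log2 fold change was -0.26 (SE 0.09, adjusted p = 0.0649), and the corrected counts, 2111 to 2425 in WT and 1832 to 1959 in Dnmt3b-/- embryos, did not overlap either. The study names Daxx among the genes in which a CpG island in an exon becomes methylated in the epiblast. It also reports that genes which lose methylation of such islands in Dnmt3b-/- embryos tend to be lower there, and calls a positive influence putative. Methylation of Daxx was not analysed here, and its part in the change of Daxx was not tested. Daxx was searched with the base content rule of the study's custom island annotation (GC content and CpG ratio in sliding windows). The study calls this annotation less stringent than the public one (UCSC) that it used first. The search found a CpG island of 425 bp on chromosome 17 (33911570 to 33911994), wholly in the coding part of the third exon. It is centred 2337 bp from the start of the gene, has a GC content of 61.9% and holds 30 CpGs. Another island, of 500 bp, begins at the start of the gene. Whether the island in the third exon is the one that the study found methylated was not tested. The stretch of 240 bases with the most CpGs in a coding exon (chr17:33911687-33911926, plus strand, GRCm38.p6) is shown since it lies in this island, with its 19 CpGs in capitals.
Daxx exon: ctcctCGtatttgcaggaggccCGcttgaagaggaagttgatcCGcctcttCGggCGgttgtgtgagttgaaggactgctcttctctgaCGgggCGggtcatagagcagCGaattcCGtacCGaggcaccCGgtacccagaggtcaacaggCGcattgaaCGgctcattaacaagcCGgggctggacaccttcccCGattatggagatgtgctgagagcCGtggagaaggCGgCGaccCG

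Smchd1, the gene of a non-canonical SMC protein (chromosome 17, 71344489 to 71475343, minus strand), had 18242, 17389 and 16689.7 normalized counts in WT embryos and 20766, 22704.5 and 22359 in Dnmt3b-/- embryos. The groups did not overlap, and the log2 fold change was 0.33 (SE 0.07, adjusted p = 0.00778), a rise of 25.8%. It was 0.03 after the correction (95% interval -0.12 to 0.18, adjusted p = 0.779), where the groups overlapped.

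**Figure D3:**
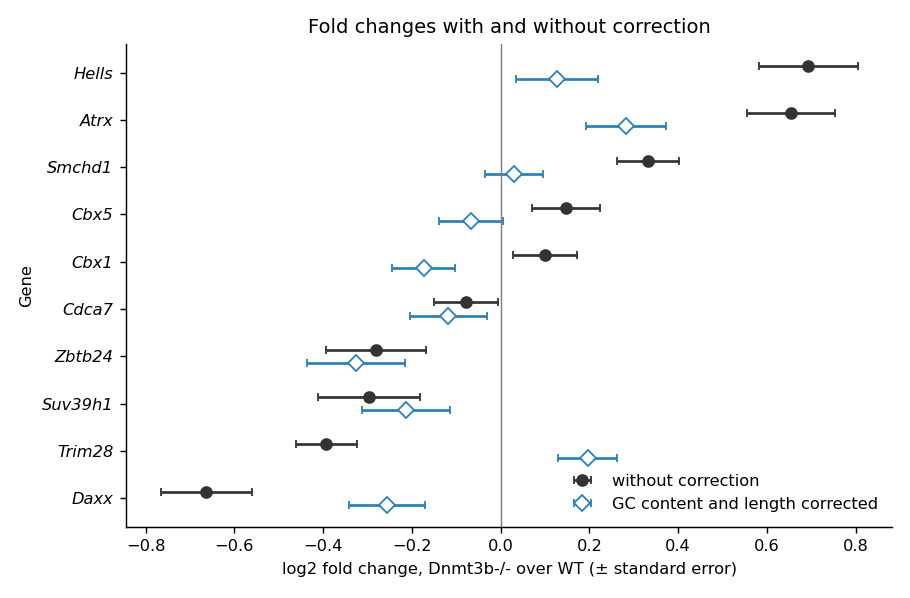
Log2 fold change of each gene in Dnmt3b-/- over WT embryos with its standard error, from the counts as deposited (filled circles) and after the correction for GC content and length (open diamonds). The correction brought Hells from 0.69 to 0.13 and Smchd1 from 0.33 to 0.03, and moved Trim28 across 0, from -0.39 to 0.20.

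Ordered by fold change, the 10 genes were thus almost ordered by base content. The exonic GC content was 38.5% for Hells, 39.5% for Atrx, 42.2% for Smchd1, 43.0% for Cbx5 and 44.0% for Cbx1, which all had positive fold changes, and 48.7% to 59.6% for the 5 genes with negative ones. Over the 10 genes the log2 fold change and the exonic GC content had a Spearman rho of -0.98 and a Pearson r of -0.93, and over all genes tested the rho was -0.54. All of these values share the same 6 libraries and are given as a description. After the correction the rho over the 10 genes was -0.44. The calls of Hells, Atrx, Smchd1, Trim28 and Daxx held when each embryo was left out in turn, with adjusted p-values up to 0.0458.

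**Figure D4:**
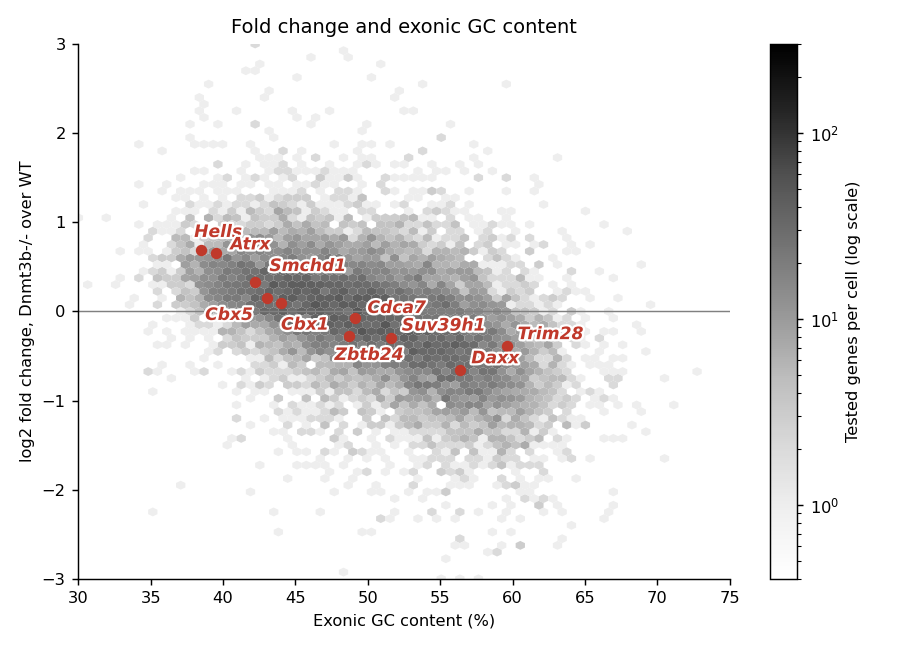
Log2 ratio of Dnmt3b-/- to WT embryos against exonic GC content in percent, for the genes tested (grey cells, darker with more genes on a logarithmic scale) and the 10 genes (red points). The 136 genes beyond the axes or without a GC content are not drawn, and the 10 genes follow the downward slope of the other genes.

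The promoters of the genes that passed the test did not split in this way. In the 250 bases before the most upstream RefSeq start site, Hells and Smchd1, which rose without the correction, had 28 and 33 CpGs, and Daxx and Trim28, which fell, had 29 and 17. Atrx, which rose as well, had 6. Over the promoters of 27025 genes the median was 6 CpGs, and 91.7% had at least 1. The other genes had 11 (Zbtb24 and Suv39h1), 16 (Cbx1), 21 (Cdca7) and 22 (Cbx5). The sequences of the genes with the largest changes in each direction are shown in GRCm38.p6, from RefSeq, with CpGs in capitals, to let this CpG content be seen. They are chr19:38930740-38930989 on the plus strand for Hells, chrX:105929373-105929622 on the minus strand for Atrx, chr17:33909195-33909444 on the plus strand for Daxx and chr7:13023902-13024151 on the plus strand for Trim28. As many CpGs as in Hells, Daxx and Trim28 were found in 7.26%, 6.44% and 23.5% of all promoters of this length.
Hells: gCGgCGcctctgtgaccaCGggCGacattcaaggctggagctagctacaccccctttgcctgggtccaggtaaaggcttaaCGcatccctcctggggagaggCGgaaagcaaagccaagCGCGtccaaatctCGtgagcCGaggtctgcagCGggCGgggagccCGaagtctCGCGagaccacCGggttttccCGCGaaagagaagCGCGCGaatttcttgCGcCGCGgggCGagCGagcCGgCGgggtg
Atrx: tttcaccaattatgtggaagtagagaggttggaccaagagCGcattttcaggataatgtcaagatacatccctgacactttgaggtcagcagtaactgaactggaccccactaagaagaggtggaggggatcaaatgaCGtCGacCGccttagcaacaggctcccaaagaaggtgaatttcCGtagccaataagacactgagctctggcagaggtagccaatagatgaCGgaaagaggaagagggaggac
Daxx: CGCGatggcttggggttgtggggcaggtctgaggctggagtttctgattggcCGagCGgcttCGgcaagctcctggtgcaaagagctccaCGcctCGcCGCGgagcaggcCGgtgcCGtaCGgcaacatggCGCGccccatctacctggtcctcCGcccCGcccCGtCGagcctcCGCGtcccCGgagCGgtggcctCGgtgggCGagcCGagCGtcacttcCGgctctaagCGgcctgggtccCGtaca
Trim28: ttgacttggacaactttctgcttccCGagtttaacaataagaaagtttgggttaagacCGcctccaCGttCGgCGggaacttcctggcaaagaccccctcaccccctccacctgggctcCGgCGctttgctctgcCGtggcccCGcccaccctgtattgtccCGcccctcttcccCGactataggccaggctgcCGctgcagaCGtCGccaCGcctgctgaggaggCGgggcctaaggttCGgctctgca

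Ratios between partner or paralog genes within an embryo do not depend on the scaling between libraries, and 3 were computed from the raw counts. The log2 ratio of Atrx over Daxx was 3.18, 3.11 and 2.87 in WT embryos and 4.06, 4.34 and 4.70 in Dnmt3b-/- embryos, a mean difference of 1.31. Hells over Cdca7 gave 0.46, 0.58 and 0.38 in WT embryos and 1.097, 1.27 and 1.34 in Dnmt3b-/- embryos, a difference of 0.76. In contrast, Cbx5 over Cbx1 was close in both genotypes, at 2.59 ± 0.01 in WT and 2.63 ± 0.04 in Dnmt3b-/- embryos (SD, n = 3 each), a difference of 0.05. For each ratio all Dnmt3b-/- embryos lay above all WT embryos. The exact permutation test gave p = 0.1 for each (two-sided, adjusted p = 0.1 over the 3 ratios), which is the smallest p that 3 against 3 embryos allow. Genes of a pair with a different base content still share the trend of the library, and after the correction the differences were 0.53 for Atrx over Daxx, 0.25 for Hells over Cdca7 and 0.10 for Cbx5 over Cbx1.

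**Figure D5:**
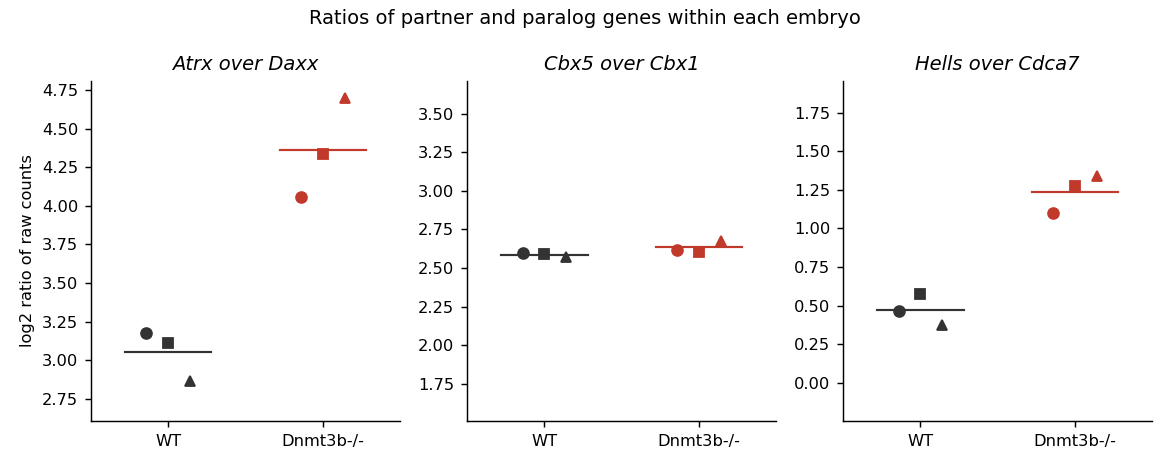
Log2 ratio of the raw counts of 2 genes within each embryo, for WT (dark grey) and Dnmt3b-/- embryos (red), with the mean as a line and circle, square and triangle for embryos 1, 2 and 3, on axes of equal span. Atrx over Daxx differed by 1.31 and Hells over Cdca7 by 0.76 between the genotypes, and Cbx5 over Cbx1 by 0.05.

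A list of 36 other genes of heterochromatin, all of them tested, held 14 genes that rose and 7 that fell, with a median log2 fold change of 0.17 against -0.03 for all genes tested. That is 58.3% of the list, against 35.7% of all genes tested. After the correction 11 were higher and 6 lower, of which 9 and 2 had been called in the same direction without it. That is 47.2% of the list, against 23.2% of all genes tested after the correction. The list was chosen with earlier results of these data known, so both shares of the list are given as a description only. The largest rise was that of Suv39h2, the paralog of Suv39h1, from 4938 ± 196 to 8945 ± 1140 normalized counts (SD, n = 3 each), with a log2 fold change of 0.86 (adjusted p = 0.000815) and of 0.52 (adjusted p = 0.00439) after the correction. Mphosph8 and Morc3, a subunit of the HUSH silencing complex and a MORC ATPase, had log2 fold changes of 0.72 (adjusted p = 0.00578) and 0.66 (adjusted p = 0.00207), and of 0.37 after the correction in both cases (adjusted p = 0.0738 and 0.0238). Lrif1, which encodes a partner of HP1 and SMCHD1, went from a log2 fold change of 0.55 (adjusted p = 0.00497) to 0.003 (adjusted p = 0.989). Uhrf1, the cofactor that brings the maintenance methyltransferase to replicated DNA, rose from 26590 ± 971 to 38690 ± 1730 normalized counts. The exonic GC content of Uhrf1 is 53.8%, and its log2 fold change of 0.54 (adjusted p = 0.00104) became 0.78 (adjusted p = 0.00103).

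Of the genes of this list that fell, Suv420h2, which writes methylation of histone H4 in heterochromatin, had the largest change, with a log2 fold change of -1.01 (adjusted p = 0.00277) and of -0.41 (adjusted p = 0.0381) after the correction. The demethylase gene Kdm4a also passed both tests, at -0.62 (adjusted p = 0.000602) and -0.41 (adjusted p = 0.00473). Cenpb, a centromere protein, Ehmt2, a writer of histone H3 lysine 9 methylation, and Cabin1, a subunit of a histone H3.3 chaperone complex, fell by 0.81, 0.69 and 0.34 on the log2 scale (adjusted p = 0.000815, 0.000873 and 0.0411). After the correction these genes were at -0.11, -0.04 and 0.15 and did not pass.

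Hells and Cdca7 are known to be more active in dividing cells. The shares of all genes tested to set beside the following counts are 35.7% without and 23.2% with the correction. Of 16 genes of DNA replication and mitosis, 4 rose and 5 fell (0 and 4 after the correction), with a median log2 fold change of -0.02, and their summed level was 6600 to 7100 CPM in WT and 6460 to 6650 in Dnmt3b-/- embryos. Of the 14 markers of embryonic tissues 4 rose and 3 fell (3 and 1 after the correction), with a median log2 fold change of 0.03 that became 0.55 after it. Of the 7 erythroid markers 0 passed, with or without the correction. Their median log2 fold change was -0.33, and their summed level was 256 to 1450 CPM in WT and 301 to 914 in Dnmt3b-/- embryos. Of the 10 extraembryonic endoderm markers 1 passed as lower, Amn (adjusted p = 0.0429, and 0.114 after the correction), which is named here after its values were seen. Amn had 709 ± 740 normalized counts in WT and 116 ± 93 in Dnmt3b-/- embryos (SD, n = 3 each), and the groups overlapped. The median log2 fold change of these markers was -1.28, and -1.09 after the correction. Of the 5 trophoblast and decidua markers that were tested, 0 passed without the correction and 1 was higher after it. Their median log2 fold change was 0.39, and the summed level of all 9 was 41.3 to 43.5 CPM in WT and 37.3 to 56.7 in Dnmt3b-/- embryos. Prl3d1, Prl2c2, Tpbpa and Prl8a2 were those without a count. The part of these cell types in the changes of the 10 genes was not tested. Without WT embryo 2, which had the highest extraembryonic endoderm level, the log2 fold changes of Hells, Atrx, Smchd1, Trim28 and Daxx were 0.74, 0.67, 0.33, -0.41 and -0.68.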

How the data were processed

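RNA-Seq of 3 WT and 3 Dnmt3b-/- whole embryos at E8.5 was used. Per the labels and the methods, the authors made stranded total RNA libraries depleted of ribosomal RNA, aligned paired reads to mm10 with TopHat2 2.0.12, counted raw counts in RefSeq exons with HTSeq 0.6.0 and derived normalized counts with DESeq2 1.4.5. The strand setting and RefSeq release are not given in the sources used here. From the deposited table only the raw counts were used. Its other columns hold the signal of the authors' size-factor scaling (normalized counts) and the authors' own comparison (log2 fold change and p-value), and were not used.

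Counts were tested with edgeR 4.0.16 (quasi-likelihood, TMM, genes averaging 10 or more counts) in R 4.3.3, with Benjamini-Hochberg adjustment over 15114 genes. Normalized counts and FPKM were computed here, with exon lengths and GC content from RefSeq on GRCm38.p6, matched for 99.1% of 24065 genes by symbol or older symbol. For the GC and length correction, a spline (5 df each) was fitted in each library. Ratios used 0.5 added counts and an exact permutation test. Alternatives were DESeq2 1.42.0, limma 3.58.1, other scalings, filters and thresholds, the replicate block, Xist as a covariate and leaving out each embryo. Library totals were 41489332 to 58470286 counts, and 3 counts correspond to 2.38 to 3.50 normalized counts. Intervals assume the fitted spread. Scripts were tested on simulated data, where edgeR recovered 0%, 28%, 72% and 92% of genes changed 1.3-fold, 1.5-fold, 2-fold and 4-fold (50 genes each). Far fewer genes were changed there than were called in the embryos, which makes the adjusted p stricter. These shares therefore do not give the power for the 10 genes, of which Smchd1 passed at 1.26-fold. A gene that did not pass the test may still have changed by a small amount.

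The members and lists were chosen with earlier results of these data known. Named were the 10 genes, Dnmt3b, Xist, overlapping genes, and the 5 largest rises and 5 largest falls of the heterochromatin list. Replicate numbers were not treated as pairs in the main test, and litters are not labelled.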

Additional observations from a re-analysis of the deposited data

How the results depend on the processing

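Without a correction for base content, Hells, Atrx, Smchd1, Trim28 and Daxx remained past an adjusted p of 0.05 with the same direction in all 14 alternatives: other filters, scalings, DESeq2, limma, the replicate block, Xist as a covariate and each embryo left out (5 to 7 genes called). Under the main settings all 5 were also below an adjusted p of 0.01. With total-count scaling, under which the median over all genes went from -0.03 to -0.11 (log2), 6 were called. Genes past the threshold fell to 0 of 10 with the GC and length correction, with that correction and the replicate block, and with the GC correction alone, and stayed at 5 with length alone, the last 2 settings being chosen after seeing the data. A fold threshold of 1.5 gave 3 genes (Hells, Atrx and Daxx) in place of 0 at 2-fold. The log2 fold change changed sign for Trim28 (0.20, 0.20 and 0.20), Cbx1 (-0.17, -0.17 and -0.15) and Cbx5 (-0.068, -0.070 and -0.15) with the GC and length correction, with it and the replicate block, and with GC alone, for Smchd1 with GC alone (-0.0041) and for Cdca7 with length alone (0.019). The cause was not tested.

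Over all genes, 2654 were higher and 2741 lower. With the GC and length correction 1636 were lower, with it and the replicate block 1418 were higher and 1087 lower, and with GC alone 1584 were lower. Lower by more than 2-fold were 571, and 136, 114 and 138 under these settings. Leaving out 1 embryo gave 1791 to 2660 lower genes, the lowest without Dnmt3b-/- embryo 2, and 391 to 774 lower by more than 2-fold. Same-numbered embryos did not resemble each other once the mean of each genotype was taken out (correlations of -0.049, -0.147 and -0.013). These correlations cannot show whether same-numbered embryos shared a litter. The replicate block left 5 of the 10 genes called, with 2172 higher and 2239 lower among all genes. The ratio of Atrx over Daxx stayed between 1.14 and 1.47, Hells over Cdca7 between 0.71 and 0.83 and Cbx5 over Cbx1 between 0.03 and 0.06 with 1 embryo left out. At the lowest counts of Zbtb24, counting adds 4.39% error.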

Other observations

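The Dnmt3b-/- embryos also differed among themselves in the trend on base content. The median log2 level of genes above the upper quartile of GC content was -0.10, -0.25 and -0.33 in Dnmt3b-/- embryos 1, 2 and 3, and that of genes below the lower quartile 0.09, 0.16 and 0.22. Hells and Atrx, poor in GC, were lowest in Dnmt3b-/- embryo 1 and highest in embryo 3, and Trim28 and Daxx, rich in GC, were highest in embryo 1 and lowest in embryo 3. Smchd1, also poor in GC, did not follow this order, with 20766, 22704.5 and 22359 normalized counts in Dnmt3b-/- embryos 1, 2 and 3. The summed level of 4 Y-linked genes ranged from 0.0189 to 257 CPM (counts scaled to an equal library size) in WT and from 0.259 to 315 CPM in Dnmt3b-/- embryos.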
